A study of Homo sapiens with 9 samples.

Results

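A group of 34 genes, made up of MYC and genes that build ribosomes in the nucleolus, was followed through RNA sequencing libraries of capsule and spheroid cultures labelled MDA-MB-231. The genes were taken by symbol from a table of 17911 genes, and all 34 had a row in it. The labels describe 3 capsule samples, 3 small spheroid samples and 3 large spheroid samples of this established human line, which derives from a triple-negative breast cancer. Every sample, the capsules included, carries the cell type entry WT and 1 shared treatment text, which names trastuzumab (an antibody against the receptor ERBB2), liquid overlay with 5% Matrigel (a basement membrane extract) and 96 h before RNA was taken. The culture medium was RPMI, with 10% fetal bovine serum, per the labels' protocols. Liquid overlay culture keeps cells from attaching to the dish, so that they gather into spheroids. The labels do not say what a capsule is made of, and all groups share the antibody and the Matrigel. Nothing in the labels says that replicates came from separate cultures, so p-values measure only the spread between these samples, which may be technical.

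MYC is a transcription factor that binds DNA as a dimer with MAX, most often at the E-box sequence CACGTG, and MXD and MNT proteins compete with it for MAX. Among its best known targets are genes for ribosome production, which begins when RNA polymerase I copies ribosomal DNA in the nucleolus. The long transcript is then modified by small nucleolar ribonucleoproteins (snoRNPs), folded and cut in large particles, and assembled with ribosomal proteins into the 40S and 60S subunits. Amplified or elevated MYC and enlarged nucleoli are long known from aggressive breast cancers.

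The E-box stood near the start site of many of these genes. RefSeq promoter windows of assembly GRCh38.p14, which run from 250 bases before to 50 bases after a start site, were on hand for 28 of the 34. CACGTG, which reads the same on both strands, was found in a window of 14 of the 28 (50%). It was found for 2396 of 27305 genes with a window (8.77%), and for 1267 of 9829 genes that reached 1 CPM (counts per 1000000 counts of the library) in all 9 libraries (12.9%). Its first base lay between 64 bases before and 36 bases after the start site. The matches were in BYSL, DDX21, FBL, GAR1, GNL3, LYAR, MYBBP1A, NAT10, NOP14, NOP2, PES1, RRP9, UTP20 and WDR43. A match is a string of letters and not a measured binding site. The 5 windows below are shown because their genes return in the results, DDX21, GNL3 and WDR43 among the members with the largest values or differences, FBL as the rRNA methylase and UTP20 as a member that was lower in 1 comparison. Each is given 5′ to 3′ on the gene's strand, with the E-box in capitals. They lie at chr10:68956604-68956633 on the + strand (DDX21), chr3:52686026-52686055 on the + strand (GNL3), chr2:28894658-28894687 on the + strand (WDR43), chr19:39846356-39846385 on the - strand (FBL) and chr12:101280083-101280112 on the + strand (UTP20).
DDX21: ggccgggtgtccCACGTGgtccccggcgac
GNL3: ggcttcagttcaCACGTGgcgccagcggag
WDR43: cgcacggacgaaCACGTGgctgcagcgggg
FBL: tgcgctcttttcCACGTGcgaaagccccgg
UTP20: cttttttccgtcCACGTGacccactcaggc

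The 9 columns of counts form 3 sets of 3 by name. The capsule columns matched the capsule samples. The spheroid columns came as 3 named MDA.L.O. and 3 named Sph.WT, and their names do not say which are small and which are large, so all 6 stand as spheroids. Totals were 13212665 to 13735221 counts in the capsule columns, 15525725 to 15988167 in the MDA.L.O. columns and 16605098 to 33263076 in the Sph.WT columns. The Sph.WT columns stood apart from the other 6: across 15384 genes, which are not independent replicates, Pearson's r of log2(CPM + 0.5) was 0.973 to 0.983 between capsule and MDA.L.O. columns, but 0.670 to 0.682 between capsule and Sph.WT columns. The capsule and MDA.L.O. columns also went against the cell line label. A list of 25 genes abundant in MDA-MB-231 summed to 981 to 1003 CPM in capsules, 1217 to 1311 CPM in MDA.L.O. and 9658 to 10813 CPM in Sph.WT. CDKN2A and CDKN2B, which MDA-MB-231 cells lack, together had 494 to 572 CPM in capsules, 506 to 732 CPM in MDA.L.O. and 0.662 to 1.16 CPM in Sph.WT. A list of 10 genes typical of HEK293 or neuronal cells summed to 2112 to 2266 CPM in capsules, 1972 to 2131 CPM in MDA.L.O. and 57.6 to 67.3 CPM in Sph.WT, where 4 of the 10, NEFL among them, had no count. Each result below is therefore given against all 6 spheroid columns, against MDA.L.O. alone and against Sph.WT alone. In the comparison with Sph.WT, culture format, the cells' identity and the column set cannot be told apart. In that with MDA.L.O., culture format and the column set coincide as well, and the spheroid size is not known. The 2 narrower comparisons share the capsule libraries.

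Most of the 34 genes were more abundant in the capsules than in either set of spheroid columns. Their summed level was 9228, 9293 and 9548 CPM in the capsule libraries, listed from lowest to highest, against 6374, 6886 and 7019 CPM in MDA.L.O. and 3317, 3373 and 3401 CPM in Sph.WT. They thus took 0.936% of all counts in capsules, 0.676% in MDA.L.O. and 0.336% in Sph.WT. The groups did not overlap, and the order held without the most abundant pair, NCL and NPM1 (6403 to 6566 CPM in capsules, 4656 to 4967 CPM in MDA.L.O. and 2363 to 2444 CPM in Sph.WT). In such bulk libraries, fewer cells of a type and less RNA per cell cannot be told apart. Mitochondrial genes took 3.88 to 4.23% of counts in capsules, 3.18 to 3.58% in MDA.L.O. and 6.84 to 7.13% in Sph.WT, and their part in the results was not tested.

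The members were abundant genes in all 3 sets. Ranked by mean CPM among all genes, the median member stood at the 95.5th percentile in capsules, the 92.4th in MDA.L.O. and the 80.6th in Sph.WT. At or above the 90th percentile were 23 members in capsules, 18 in MDA.L.O. and 5 in Sph.WT. PPAN had the lowest CPM in each set. Replicates lay close together, with a median coefficient of variation over the members of 3.89% in capsules, 6.80% in MDA.L.O. and 5.76% in Sph.WT.

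**Figure D1:**
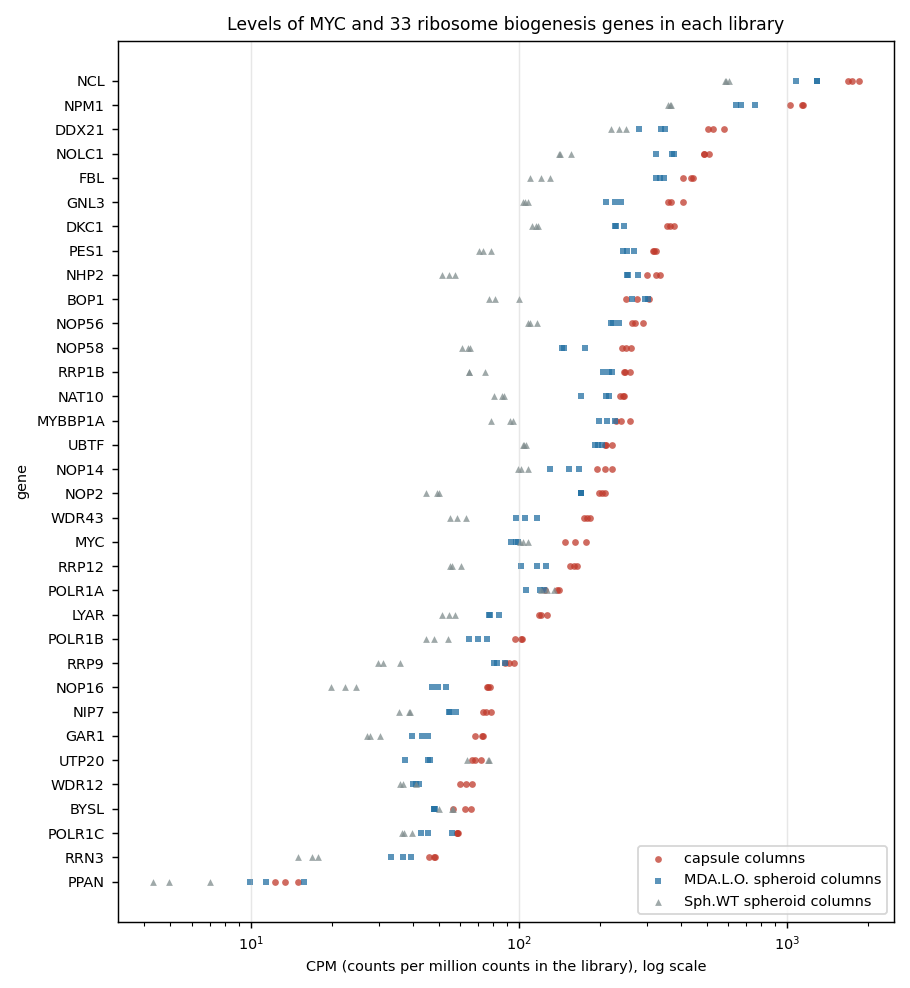
Level of each of the 34 genes (y axis) in CPM (x axis, log scale), with 1 point per library: capsules in red circles, MDA.L.O. in blue squares and Sph.WT in grey triangles. For most genes the capsule points lie to the right of both spheroid sets, with MYC, WDR12, UTP20, POLR1A and BYSL as genes whose Sph.WT points reach or pass the MDA.L.O. points.

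Against all 6 spheroid columns, 14 of the 34 genes were called higher in capsules and 0 lower by edgeR's quasi-likelihood test at a Benjamini-Hochberg adjusted p under 0.05. Of all 16985 genes tested, 2.30% were called higher and 1.47% lower. The 14 were NCL, NPM1, NOP58, DKC1, GAR1, NOP16, NOP14, WDR43, RRP12, POLR1B, GNL3, NIP7, DDX21 and LYAR. Among them, 6 were at least 2-fold higher, namely NPM1, NOP58, DKC1, NOP16, WDR43 and GNL3, where 0.241% of all genes passed both limits. The median log2 fold change was 0.82 over the members and −0.06 over all genes. In 29 of the 34 genes every capsule library lay above every spheroid library, as did 11.2% of all genes. This fit joins spheroid columns that are unlike each other (a common biological coefficient of variation of 66.0%), and its calls were fragile. Without any 1 of the 3 capsule libraries edgeR called 0 members and 0 of all genes, with 22 to 24 members and 2448 to 2620 genes at an unadjusted p under 0.05. Without Sph.WT library 1 edgeR called 7 members, and without Sph.WT library 3 it called 9. With all libraries, DESeq2 called 22 members, limma-voom 14 and edgeR with median-ratio size factors 11. Library totals gave 5 members, with 99 genes higher and 260 lower in place of 390 and 249, and a block for the replicate number, which pairs nothing in these data, gave 0.

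Against the MDA.L.O. columns, 32 of the 34 genes rose in capsules and 0 fell, with BOP1 and PPAN not called. Of 15919 genes tested, 24.7% were called higher and 25.4% lower. Scaled to library totals instead of TMM factors (edgeR's trimmed mean scaling), the calls over all genes were 2281 higher and 5848 lower, in place of 3934 higher and 4036 lower, the median of all genes was −0.16, and 30 members were called higher. The rises were modest. Log2 fold changes ran from 0.09 to 0.90 with a median of 0.60, against −0.01 over all genes, and no member reached 2-fold, which 0.792% of all genes did. In 31 of the 34 every capsule library lay above every MDA.L.O. library (17.2% of all genes), the others being BOP1, RRP9 and PPAN. Of the members, 21 lay above the 90th percentile of all genes' log2 fold changes, which was 0.48, and 33 above the 75th, which was 0.26. The common coefficient of variation was 7.33%.

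Against the Sph.WT columns, 31 of the 34 genes were higher in capsules, UTP20 and POLR1A were lower, and BYSL was not called. So many genes differed here that a call says little: of 16157 genes tested, 43.2% were called higher and 42.9% lower. The median log2 fold change was 1.22 over the members and 0.01 over all genes, and 22 members were at least 2-fold higher, as were 26.3% of all genes. In 32 of the 34 every capsule library lay above every Sph.WT library (51.0% of all genes). No member lay above the 90th percentile of all genes, a log2 fold change of 3.04, and 19 lay above the 75th, which was 1.08. Scaled to library totals, all genes shifted by a median of 0.29, 32 members were called higher and 0 lower.

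**Figure D2:**
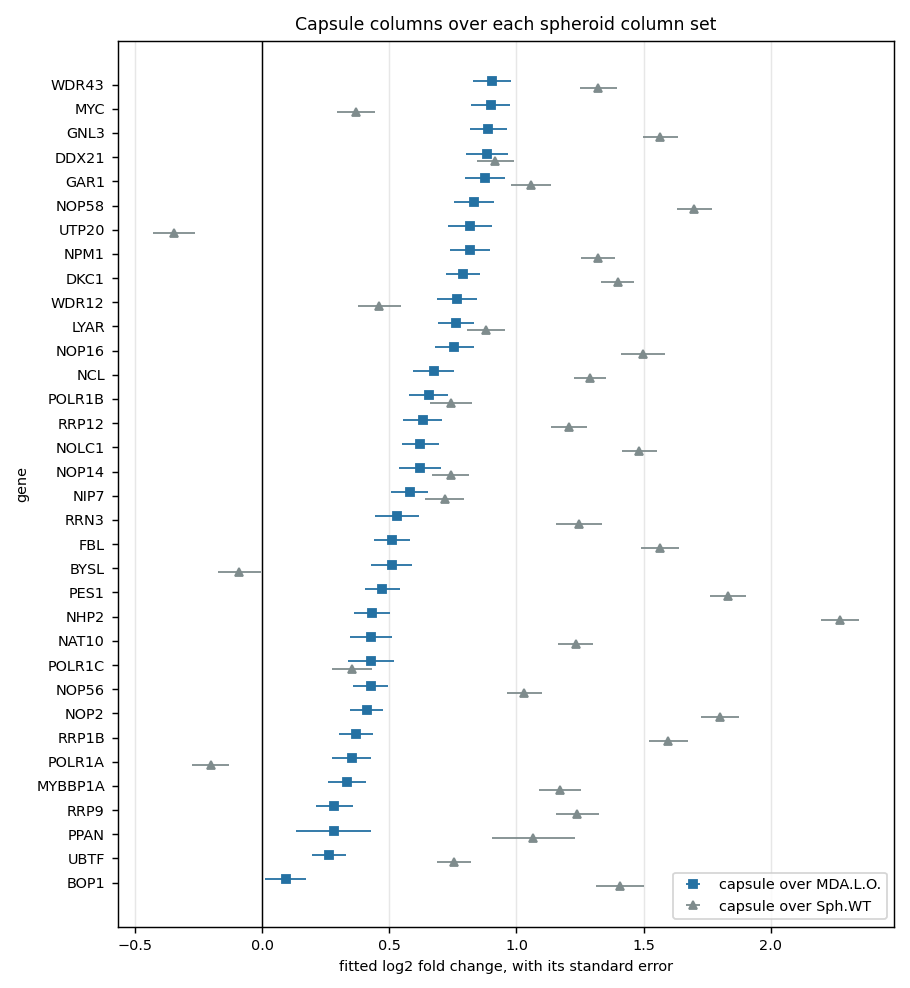
Fitted log2 fold change (x axis) of each of the 34 genes (y axis), capsule over MDA.L.O. in blue squares and capsule over Sph.WT in grey triangles, with bars for the standard error. All blue squares lie between 0.09 and 0.90, while the grey triangles spread from −0.35 (UTP20) to 2.27 (NHP2).

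**Figure D3:**
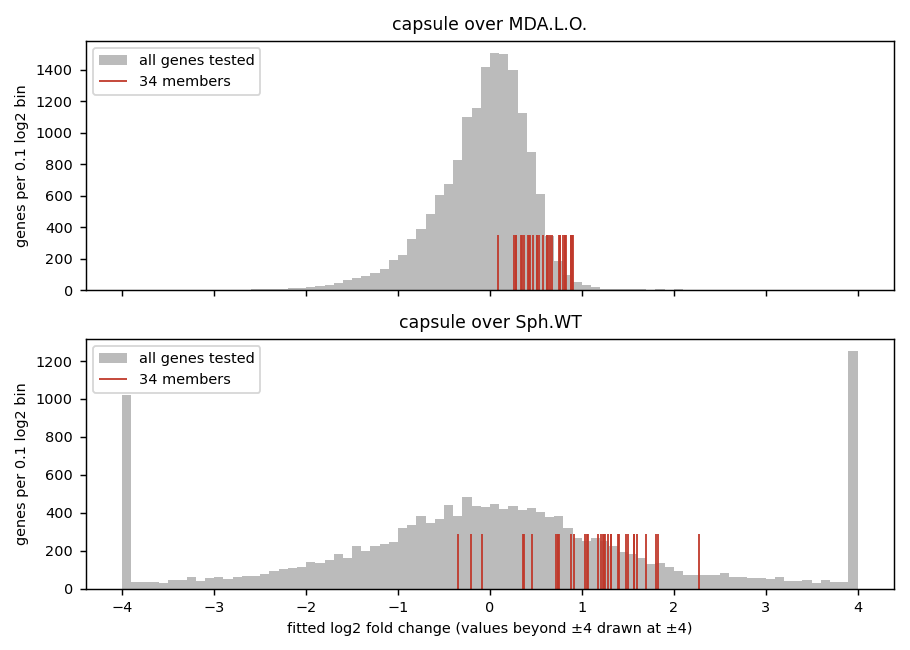
Number of genes (y axis) by fitted log2 fold change (x axis), with all genes tested in grey and each of the 34 genes as a red line. Against MDA.L.O. (top) the red lines sit on the right shoulder of a narrow distribution, and against Sph.WT (bottom) they sit inside a wide one.

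MYC itself, the transcription factor of the group, had 148, 178 and 161 CPM in capsules, 97.2, 98.6 and 93.5 CPM in MDA.L.O. and 108, 103 and 100.6 CPM in Sph.WT. In CPM the capsule libraries were all above the spheroid libraries, and the 2 spheroid sets were near each other, with MDA.L.O. below Sph.WT. Its log2 fold change was 0.90 ± 0.076 (SE) against MDA.L.O. (edgeR adjusted p = 3.35e-08) and 0.37 ± 0.076 against Sph.WT (edgeR adjusted p = 1.73e-04). Against all 6 columns it was 0.59 ± 0.19 and was not called (edgeR adjusted p = 0.117). In these fits MYC was thus among the members with the largest difference from MDA.L.O. and among those with a small difference from Sph.WT. In mean CPM, without TMM factors, capsules stood at 1.68 times MDA.L.O. and 1.56 times Sph.WT. The 2 differences of MYC were thus nearer each other in CPM than in the fits. Per kilobase of exon it stood at 54.1 CPM in capsules, 32.1 in MDA.L.O. and 34.6 in Sph.WT.

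The chaperones and scaffolds of the nucleolus included the 2 members with the highest CPM, a scale that does not allow for gene length. Per kilobase of exon NPM1 stood highest in capsules with 287 CPM, followed by NCL with 254, NHP2 with 211 and FBL with 198. This length counts every annotated exon of a gene, so the ranking depends on the annotation too. NCL (nucleolin, which binds pre-rRNA) had 1747, 1679 and 1851 CPM in capsules, 1294, 1291 and 1074 CPM in MDA.L.O. and 605, 592 and 586 CPM in Sph.WT. The 3 sets did not overlap. Its log2 fold change was 0.67 ± 0.079 (SE) against MDA.L.O., 1.29 ± 0.064 against Sph.WT and 0.94 ± 0.20 against all 6 columns (edgeR adjusted p = 1.38e-06, 3.15e-13 and 0.0427). NPM1 (nucleophosmin, a histone and ribosomal protein chaperone of the outer nucleolus) had 1144, 1024 and 1131 CPM in capsules, 757, 669.7 and 644 CPM in MDA.L.O. and 359, 364 and 367 CPM in Sph.WT. It too had 3 separate ranges, with log2 fold changes of 0.82 ± 0.077 and 1.32 ± 0.066 against MDA.L.O. and Sph.WT and of 1.03 ± 0.17 against all 6 columns (edgeR adjusted p = 1.14e-07, 4.01e-13 and 0.0221). The annotation lists 50 pseudogenes under the name of NPM1, and reads that they share with it may have been split or lost. NOLC1, a scaffold that carries snoRNPs, averaged 496 ± 12.03 CPM in capsules, 357 ± 29.5 CPM in MDA.L.O. and 146 ± 8.83 CPM in Sph.WT (SD, n = 3 each). It was higher in capsules than in either set and was not called against all 6 (edgeR adjusted p = 0.0761).

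DDX21, an RNA helicase that works on ribosomal DNA transcription and on snoRNA release, had 528, 505 and 581 CPM in capsules, 350.1, 338 and 279 CPM in MDA.L.O. and 221, 249.8 and 235 CPM in Sph.WT. The sets did not overlap. Its log2 fold changes were nearly equal against the 2 spheroid sets, 0.88 ± 0.083 (SE) against MDA.L.O. and 0.92 ± 0.073 against Sph.WT, and 0.88 ± 0.11 against all 6 columns (edgeR adjusted p = 1.13e-07, 5.13e-10 and 0.014). In mean CPM, capsules stood at 1.67 times MDA.L.O. and 2.29 times Sph.WT, so the near equality came with the TMM factors.

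The proteins of box C/D snoRNPs, which methylate rRNA on its ribose, all rose against both sets. NOP58, a core protein of these particles, had 250.1, 241 and 261 CPM in capsules, 176, 145 and 147 CPM in MDA.L.O. and 65.7, 60.9 and 64.6 CPM in Sph.WT. This was the largest difference from all 6 columns among the members called, at 1.19 ± 0.25 (SE) on the log2 scale, with 0.83 ± 0.079 against MDA.L.O. and 1.70 ± 0.069 against Sph.WT (edgeR adjusted p = 0.0427, 1.14e-07 and 1.39e-14). Its partner NOP56 averaged 275 ± 13.6, 226 ± 8.30 and 111 ± 4.48 CPM in capsules, MDA.L.O. and Sph.WT (SD, n = 3 each), with log2 fold changes of 0.43 and 1.03. FBL (fibrillarin, the methylase) averaged 431 ± 20.1, 335 ± 11.6 and 120.3 ± 10.3 CPM in the same order, with log2 fold changes of 0.51 and 1.57. Whether the 3 proteins of the complex differ in their change was not tested.

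Box H/ACA snoRNPs convert uridine to pseudouridine in rRNA, and DKC1 (dyskerin) is their catalytic protein. DKC1 averaged 366 ± 11.2 CPM in capsules, 234 ± 9.59 CPM in MDA.L.O. and 115 ± 3.22 CPM in Sph.WT (SD, n = 3 each), with log2 fold changes of 0.79 and 1.40. GAR1, which regulates the particle, averaged 71.4 ± 2.47, 43.0 ± 2.94 and 28.3 ± 1.71 CPM, with log2 fold changes of 0.88 and 1.06. NHP2, an RNA-binding core protein, averaged 319 ± 18.4, 262 ± 13.1 and 54.5 ± 3.14 CPM, with log2 fold changes of 0.43 and 2.27. NHP2 had the largest difference from Sph.WT of all 34 and a below-median difference from MDA.L.O. Against all 6 columns it was not called (edgeR adjusted p = 0.197), while DKC1 and GAR1 were (edgeR adjusted p = 0.0249 and 0.014).

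RNA polymerase I and its factors showed the smallest differences from Sph.WT of any group of members apart from MYC alone, with a median log2 fold change of 0.74, and 0.43 against MDA.L.O. POLR1A, the largest subunit, had 125, 139 and 140.3 CPM in capsules, 119, 124 and 106 CPM in MDA.L.O. and 121, 135 and 127 CPM in Sph.WT. All 3 capsule libraries lay above MDA.L.O., by the small margin of 125 to 124 CPM, and they overlapped Sph.WT. It rose by 0.35 ± 0.076 (SE) on the log2 scale against MDA.L.O. (edgeR adjusted p = 7.99e-04) and fell by 0.20 ± 0.074 against Sph.WT (edgeR adjusted p = 0.0158). That fall turned to 0.07 when library totals replaced TMM factors, and POLR1A was not called without capsule library 1 (−0.19) or without Sph.WT library 2 (−0.16). Against all 6 columns POLR1A differed by 0.03 ± 0.20 and turned negative, to between −0.05 and −0.01, without any 1 of the MDA.L.O. libraries.

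POLR1B, the second largest subunit, had 96.4, 102 and 102 CPM in capsules, 76.1, 69.9 and 65.0 CPM in MDA.L.O. and 45.04, 54.4 and 48.0 CPM in Sph.WT. The sets did not overlap, and it rose by 0.65 ± 0.076 (SE) on the log2 scale against MDA.L.O. and 0.74 ± 0.083 against Sph.WT (edgeR adjusted p = 1.25e-06 and 8.01e-08). POLR1C, a subunit shared with RNA polymerase III, had 58.9, 58.5 and 58.7 CPM in capsules, 45.7, 43.0 and 56.1 CPM in MDA.L.O. and 37.1, 39.7 and 36.6 CPM in Sph.WT. The third MDA.L.O. library came close to the capsules without reaching them, and the log2 fold changes were 0.43 and 0.35. UBTF, which opens ribosomal DNA for transcription, averaged 214 ± 6.83 CPM in capsules, 197 ± 5.84 CPM in MDA.L.O. and 105 ± 1.18 CPM in Sph.WT (SD, n = 3 each), with log2 fold changes of 0.26 and 0.76. RRN3, the initiation factor that brings the polymerase to the promoter, averaged 47.6 ± 1.37, 36.5 ± 3.11 and 16.6 ± 1.47 CPM in the same order, with log2 fold changes of 0.53 and 1.25. The pseudogenes RRN3P1, RRN3P2 and RRN3P3 have rows of their own in the table, so its reads may be split among them.

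The members that process the 40S precursor all rose against MDA.L.O. WDR43, part of the small subunit processome, had 175, 178 and 184 CPM in capsules, 116, 105 and 96.9 CPM in MDA.L.O. and 55.4, 58.8 and 63.4 CPM in Sph.WT. It had the largest fitted difference from MDA.L.O. of all 34, 0.90 ± 0.075 (SE) on the log2 scale, with 1.32 ± 0.072 against Sph.WT and 1.08 ± 0.14 against all 6 columns (edgeR adjusted p = 2.74e-08, 1.55e-12 and 0.014). RRP12 (an export factor of precursors) averaged 160.0 ± 4.48 CPM in capsules, 114 ± 11.9 CPM in MDA.L.O. and 57.2 ± 2.90 CPM in Sph.WT (SD, n = 3 each). NOP14, a processome protein, averaged 209 ± 13.5, 150.3 ± 18.5 and 103 ± 4.69 CPM in the same order. NAT10, the acetyltransferase of 18S rRNA, averaged 242 ± 4.53, 199 ± 25.8 and 85.1 ± 3.89 CPM. RRP9, which belongs to the U3 snoRNP, averaged 92.2 ± 3.56, 83.8 ± 4.44 and 32.2 ± 3.29 CPM. Its difference from MDA.L.O. was small (0.28 ± 0.073, edgeR adjusted p = 0.00326), and its capsule and MDA.L.O. libraries overlapped, with 88.7 CPM in the lowest capsule and 88.8 CPM in the highest MDA.L.O. library.

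UTP20 and BYSL did not share the difference from Sph.WT. UTP20, a large scaffold of the processome, had 66.8, 68.3 and 72.0 CPM in capsules, 46.6, 45.9 and 37.5 CPM in MDA.L.O. and 63.8, 76.7 and 76.9 CPM in Sph.WT. It rose by 0.82 ± 0.087 (SE) on the log2 scale against MDA.L.O. and fell by 0.35 ± 0.083 against Sph.WT (edgeR adjusted p = 4.20e-07 and 7.32e-04), although its capsule and Sph.WT libraries overlapped in CPM. Scaled to library totals the difference from Sph.WT was −0.07 and not called. BYSL, needed late in 40S maturation, averaged 61.9 ± 4.82 CPM in capsules, 48.1 ± 0.211 CPM in MDA.L.O. and 54.3 ± 3.598 CPM in Sph.WT (SD, n = 3 each). It rose against MDA.L.O. (0.51 ± 0.081, edgeR adjusted p = 3.82e-05) and differed by −0.09 ± 0.085 from Sph.WT (edgeR adjusted p = 0.324), which became 0.19 with library totals.

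The members that build the 60S subunit rose against both sets, PPAN excepted. GNL3 (nucleostemin, a nucleolar GTP-binding protein) had 369, 357 and 407.5 CPM in capsules, 239.8, 227 and 211 CPM in MDA.L.O. and 104, 105 and 108 CPM in Sph.WT. Its ranges were well apart, with log2 fold changes of 0.89 ± 0.074 (SE) against MDA.L.O., 1.57 ± 0.069 against Sph.WT and 1.18 ± 0.20 against all 6 columns (edgeR adjusted p = 2.56e-08, 5.27e-14 and 0.0249). NOP16, a factor of early 60S particles, had 75.8, 76.3 and 77.6 CPM in capsules, 53.2, 47.4 and 49.9 CPM in MDA.L.O. and 24.6, 22.4 and 19.9 CPM in Sph.WT. It too showed no overlap, with log2 fold changes of 0.76 ± 0.075, 1.499 ± 0.087 and 1.07 ± 0.23 in the same 3 comparisons (edgeR adjusted p = 2.11e-07, 4.07e-12 and 0.0407).

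Of the other 60S members, NOP2 (a methyltransferase of 28S rRNA) averaged 204 ± 5.67 CPM in capsules, 169.8 ± 0.286 CPM in MDA.L.O. and 48.1 ± 2.78 CPM in Sph.WT (SD, n = 3 each), with log2 fold changes of 0.41 and 1.80. LYAR, a nucleolar protein of growing cells, averaged 122 ± 4.17, 79.7 ± 4.01 and 54.6 ± 3.07 CPM, with log2 fold changes of 0.76 and 0.88. NIP7, a factor of pre-rRNA processing, averaged 75.5 ± 2.48, 55.9 ± 1.77 and 37.8 ± 1.94 CPM, with 0.58 and 0.72. RRP1B averaged 250.3 ± 6.48, 215 ± 8.74 and 68.1 ± 5.42 CPM, with 0.37 and 1.60, and MYBBP1A, a nucleolar protein that binds MYB, averaged 242 ± 15.2, 213 ± 14.4 and 88.5 ± 8.56 CPM, with 0.33 and 1.17. PPAN was measured at 13.5 ± 1.37, 12.3 ± 3.00 and 5.41 ± 1.41 CPM. It was higher in capsules than in Sph.WT (1.07 ± 0.16 SE, edgeR adjusted p = 5.30e-06), and against MDA.L.O. it differed by 0.28 ± 0.15 without a call (edgeR adjusted p = 0.122). PPAN overlaps P2RY11 and a read-through gene that joins the pair, and its counts are uncertain for that reason.

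PES1, BOP1 and WDR12 form the PeBoW complex, which is needed to cut the precursor of 28S rRNA, and their values were unlike each other. PES1 averaged 319 ± 4.34 CPM in capsules, 255 ± 12.4 CPM in MDA.L.O. and 74.0 ± 3.93 CPM in Sph.WT (SD, n = 3 each), with log2 fold changes of 0.47 and 1.83. WDR12 averaged 63.4 ± 3.08, 41.3 ± 0.958 and 37.9 ± 2.85 CPM. With TMM factors its log2 fold changes had the opposite order, 0.77 and 0.46. In mean CPM, capsules stood at 1.54 times MDA.L.O. and 1.67 times Sph.WT, so that order came with the TMM factors. BOP1 averaged 276 ± 27.7, 287 ± 20.5 and 86.1 ± 12.01 CPM. It was higher in capsules than in Sph.WT (1.41 ± 0.095 SE, edgeR adjusted p = 3.97e-11). From MDA.L.O. it differed by 0.09 ± 0.081 (edgeR adjusted p = 0.358), and by −0.06 with library totals. None of the 3 was called against all 6 columns. Differences between the members of this complex were not tested.

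Members of this group overlap other genes in the annotation. Introns of NCL, NOP56, NOP58, DKC1, WDR43, UTP20, GNL3 and PPAN hold annotated snoRNA genes, and 9 of the 34 overlap another protein-coding gene (NHP2, NOP16, BOP1, POLR1C, RRN3, GNL3, PPAN, MYBBP1A and BYSL). The strand setting of the counting is not given in the sources used here, so reads of such neighbours cannot be told apart.

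Genes of the same processes outside the 34, taken from lists written from general knowledge, also rose for the most part against MDA.L.O. Among genes for assembling snoRNPs, 10 of 11 rose and 0 fell, with a median log2 fold change of 0.55. NAF1, which loads H/ACA particles, had 57.6 ± 1.91 CPM in capsules and 39.4 ± 2.82 CPM in MDA.L.O. (SD, n = 3 each) and rose by 0.69. Of 38 further genes of the small subunit processome and 40S maturation, 34 rose and 0 fell (median 0.58), led by NOL11 (160.1 ± 2.97 CPM in capsules and 96.8 ± 5.82 CPM in MDA.L.O.) and WDR36 (67.2 ± 7.47 and 41.3 ± 6.22 CPM). Of 39 further genes of 60S assembly, 32 rose and 0 fell (median 0.48), with NOC3L, DDX18 and MRTO4 at 0.83, 0.80 and 0.79. The RNA exosome, which trims rRNA ends, had 11 of 13 subunits and cofactors higher and 0 lower (median 0.45), with EXOSC8 and EXOSC9 at 0.80 and 0.76. Of all genes tested, 24.7% were called higher and 25.4% lower. With library totals, 7 genes of snoRNP assembly rose and 0 fell, and 31 of 40S maturation rose and 2 fell. In 60S assembly 27 then rose and 1 fell, and in the exosome 10 rose and 0 fell.

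Further subunits and factors of RNA polymerase I were more mixed. Against MDA.L.O., 8 of 11 rose and 1 fell, beside 24.7% and 25.4% of all genes. Their median was 0.41, and with library totals 4 rose and 1 fell. POLR1F, of the polymerase stalk, had 66.2 ± 5.19 CPM in capsules and 40.5 ± 3.26 CPM in MDA.L.O. (SD, n = 3 each) and rose by 0.85, and POLR1E rose by 0.61. TAF1C, part of the promoter factor SL1, fell by 0.33 ± 0.082 (SE), with 87.5 ± 7.98 CPM in capsules and 122 ± 9.86 CPM in MDA.L.O. (edgeR adjusted p = 0.0026). Against Sph.WT, 9 rose, among them TCOF1 (treacle, an activator of ribosomal DNA transcription) by 1.84, and 2 fell, TAF1B by 1.11 and TAF1D by 0.20. The shares of all genes called there were 43.2% higher and 42.9% lower. TAF1D turned to 0.07 with library totals and was then not called, and it averaged 52.6 CPM in capsules and 50.2 CPM in Sph.WT.

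Against Sph.WT the lists of 40S maturation and 60S assembly also held genes that fell. In that comparison 43.2% of all genes were called higher and 42.9% lower. Of the 38 genes of 40S maturation, 29 rose and 3 (NOL6, UTP23 and WDR46) fell, of which WDR46 was not called with library totals (−0.14). Of the 39 genes of 60S assembly, 32 rose and 4 fell (34 and 2 with library totals), with EIF6, which keeps the 60S from joining the 40S too early, lowest at −0.89 ± 0.080 (SE). EIF6 averaged 149.7 ± 9.49 CPM in capsules and 229 ± 22.7 CPM in Sph.WT (SD, n = 3 each, edgeR adjusted p = 3.49e-09). All 13 exosome genes rose and 9 of 11 snoRNP assembly genes rose, with 0 falls in both lists, and RUVBL1, an ATPase of particle assembly, led the second with 2.10. The medians were 0.78, 0.64, 0.89 and 0.83 in these 4 lists. Against all 6 columns, 16 of 38, 16 of 39, 3 of 13 and 4 of 11 were called higher, and 0 lower. The shares of all genes there were 2.30% and 1.47%.

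**Figure D4:**
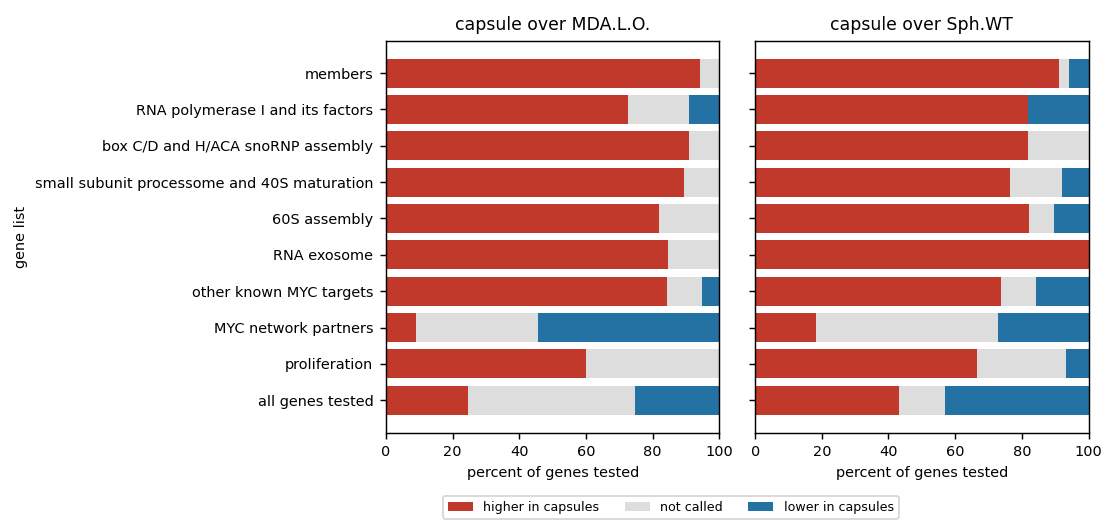
Percent of the genes tested in each list (x axis) that were called higher in capsules (red), not called (light grey) or lower in capsules (blue), against MDA.L.O. on the left and Sph.WT on the right. Lists of ribosome biogenesis stand mostly in red on the left, where MYC network partners are mostly grey or blue, and all genes tested give the background in the bottom bars.

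MYC's partners and competitors differed in both directions. Against MDA.L.O., 1 of 11 network genes rose and 6 fell (0 and 7 with library totals), beside 24.7% and 25.4% of all genes. Their median log2 fold change was −0.22. MAX, the partner of MYC on DNA, had 89.3, 91.9 and 93.0 CPM in capsules and 80.8, 80.9 and 86.6 CPM in MDA.L.O., a rise of 0.29 ± 0.071 (SE, edgeR adjusted p = 0.00215) with no overlap, which library totals reduced to 0.14 without a call. Of the repressive partners of MAX, MXD3 fell by 0.67 ± 0.091, with 28.2, 25.6 and 23.0 CPM in capsules and 44.0, 44.6 and 46.1 CPM in MDA.L.O. (edgeR adjusted p = 8.01e-06), MNT fell by 0.25 ± 0.083 and MXD4 by 0.22 ± 0.085 (edgeR adjusted p = 0.0161 and 0.0347). MLXIP, of the related MLX network, fell by 0.28 ± 0.073 (edgeR adjusted p = 0.00306). The MYC paralogs MYCN and MYCL were low and fell by 1.38 ± 0.25 and 0.55 ± 0.15, with 1.26 ± 0.142 and 6.66 ± 0.664 CPM in capsules and 3.63 ± 0.660 and 10.8 ± 2.17 CPM in MDA.L.O. (SD, n = 3 each). MXD1, MXI1, MGA and MLX were not called, with log2 differences of −0.21, −0.02, 0.18 and 0.05.

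The Sph.WT columns gave another picture of the same network. MYCN had 1.10 to 1.38 CPM in capsules and no count in any of the 3 Sph.WT libraries, where a count of 0 allows up to 0.0902 to 0.181 CPM per library (3 counts, counting error only). MYCL had 6.66 ± 0.664 CPM in capsules, against 0.214 ± 0.174 CPM in Sph.WT (SD, n = 3 each). MXI1, a further MAX-binding repressor, fell in capsules by 0.81 ± 0.076 (SE), with 47.6 ± 0.770 CPM in capsules and 69.0 ± 3.21 CPM in Sph.WT (SD, n = 3 each, edgeR adjusted p = 6.49e-09), and its fall was 0.54 with library totals. MXD1 and MLX fell by 0.27 each with TMM factors: with library totals they differed by 0.01 each and were not called, and their mean CPM was 14.4 and 73.8 in capsules, against 14.3 and 73.2 in Sph.WT. With TMM factors, 2 of the 11 rose and 3 fell, while MAX, MXD3, MXD4, MNT, MGA and MLXIP were not called (0.06, 0.23, −0.05, 0.01, 0.02 and −0.06). With library totals 8 rose and 1 fell. With TMM factors, 43.2% of all genes were called higher and 42.9% lower. Against all 6 columns none of the 11 was called by edgeR, with a median of −0.15.

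**Figure D5:**
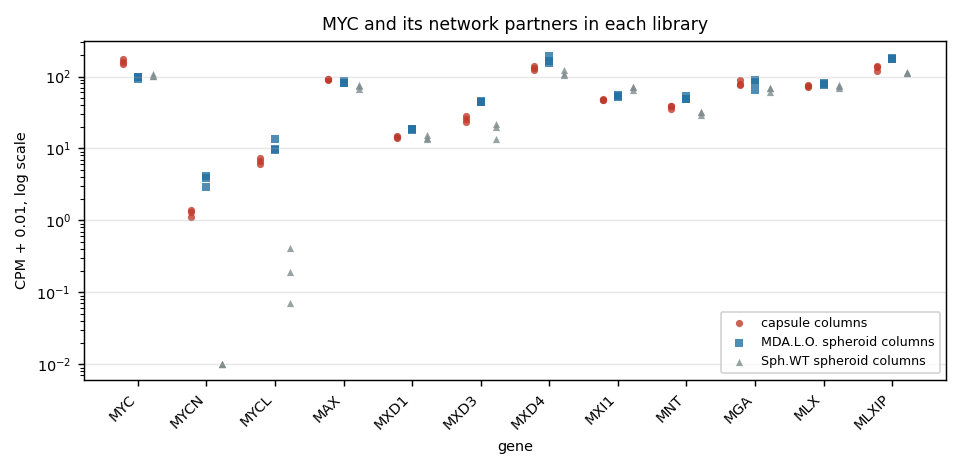
Level of MYC and 11 genes of its network (x axis) as CPM + 0.01 (y axis, log scale), with 1 point per library: capsules in red circles, MDA.L.O. in blue squares and Sph.WT in grey triangles. MYC and MAX are highest in capsules, MXD3, MNT and MLXIP are lower in capsules than in MDA.L.O., and MYCN lies at the bottom of the scale in Sph.WT, where it had no count.

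Known MYC targets with other roles were mostly higher than in MDA.L.O., where 16 of 19 rose and 1 fell (14 and 2 with library totals). Their median log2 fold change was 0.45. In that comparison 24.7% of all genes were called higher and 25.4% lower. NME1, a nucleotide kinase, rose by 0.77, with 195 ± 9.85 CPM in capsules and 127 ± 3.55 CPM in MDA.L.O. (SD, n = 3 each). TFRC, the transferrin receptor, rose by 0.69, with 294 ± 20.2 CPM in capsules and 202 ± 22.8 CPM in MDA.L.O. Against Sph.WT 14 rose and 3 fell (16 and 3 with library totals), beside 43.2% and 42.9% of all genes. CCND2 (cyclin D2) rose by 5.92 and ODC1, which starts polyamine synthesis, by 2.34, while TFRC fell by 1.23 and LDHA by 0.76. Against all 6 columns 4 of the 19 were called higher and 0 lower, beside 2.30% and 1.47% of all genes. With library totals, 0 of the list were called higher and 1 lower.

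Of 15 proliferation genes, 9 rose against MDA.L.O. and 0 fell (6 and 1 with library totals), beside 24.7% and 25.4% of all genes. Their median was 0.31. The 3 with the largest rise were MCM3, MCM6 and PCNA, of the replication machinery, at 0.55, 0.52 and 0.51. MKI67, TOP2A, MCM5, CCNB1, BUB1 and AURKA were not called. Against Sph.WT, 10 rose and 1 fell, beside 43.2% and 42.9% of all genes. MCM2 rose most, by 2.15, and the median of the list was 0.33. AURKA fell by 0.20 with TMM factors, averaging 113 CPM in capsules and 107 CPM in Sph.WT, and with library totals it turned to 0.07 and was not called. Whether proliferation genes and members differ in their change was not tested.

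Members with and without the E-box in a promoter window had similar medians. Against MDA.L.O., the median log2 fold change was 0.56 over the 14 with the motif (0.28 to 0.90) and 0.55 over the 14 without (0.26 to 0.82). Against Sph.WT the medians were 1.20 (−0.35 to 1.83) and 1.05 (−0.20 to 2.27). These are descriptions of the 28 genes with a window, and no test was made of them.

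Across the 3 sets, 26 of the 34 genes kept the order capsule above MDA.L.O. above Sph.WT with no overlap between libraries. This order is in CPM, without TMM factors. The share of all genes that keep it was not counted, so the count does not set the members apart. No fit compared MDA.L.O. with Sph.WT. In the fit on all columns their TMM factors were 1.14 to 1.16 and 0.817 to 0.85, so this step depends on the scaling. For single comparisons, capsules lay wholly above MDA.L.O. in 17.2% of all genes and wholly above Sph.WT in 51.0%. The 8 other members were MYC, WDR12, UTP20, POLR1A, BYSL, BOP1, RRP9 and PPAN. In MYC, UTP20 and BYSL every MDA.L.O. library lay below every Sph.WT library. Summed markers of fibroblast, immune and endothelial cells were lowest in the capsules. The 7 fibroblast genes summed to 44.2 to 48.3 CPM in capsules, 92.7 to 104 CPM in MDA.L.O. and 167 to 198 CPM in Sph.WT. In the same order, 5 immune genes summed to 15.9 to 17.3, 39.0 to 42.2 and 131 to 147 CPM. The 4 endothelial genes summed to 2.13 to 2.65, 3.14 to 4.19 and 6.08 to 10.4 CPM. A list of 8 epithelial genes, which a breast cancer line can itself express, summed to 212 to 218, 300 to 332 and 1296 to 1357 CPM. Of these, KRT8, KRT18 and KRT19 averaged 533, 307 and 281 CPM in Sph.WT. The part of all these markers in the differences of the members was not tested.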

How the data were processed

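RNA sequencing counts of reads per gene were deposited by the authors as 1 table of 9 columns, whole numbers with no normalization, per the file headers and values. Libraries were made with Illumina's TruSeq protocol from TRIzol-extracted RNA, per the labels' protocols. The genome build hg38 and the tools featureCounts and limma are named, without versions, per the submitters' processing notes. The aligner, annotation and strand setting are not given in the sources used here. Rows without a gene symbol (237) held 0.0596 to 0.0923% of counts.

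CPM is the count per 1000000 counts of the library. Lengths were the union of exons over all transcripts of a gene in GENCODE release 29 (17130 genes, 95.6%). Promoters and coordinates came from RefSeq. Columns were matched by name. The main test was edgeR 4.0.16 (R 4.3.3, quasi-likelihood, TMM, default filter on low counts, Benjamini-Hochberg over all genes tested) on 3 capsule and 6 spheroid columns. The fits against MDA.L.O. and Sph.WT alone were given the other settings after the data were seen. DESeq2 1.42.0 and limma 3.58.1 (voom), other scalings, no filter and leaving out each library were alternatives. The fitting was tested on simulated counts. Their spread was far below that of the fit on all 6 spheroid columns, so they do not test that fit. No 2 libraries agreed within sampling noise. All 34 genes passed the filter in each fit. Counting limits cover counting error only.

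The members and lists were chosen with earlier results of these data known. Values per library are printed for MYC, the 3 members with the highest mean CPM, the 4 called members with the largest positive and negative fold changes against all 6 columns (none was negative) and the 3 polymerase subunits; UTP20, MAX and MXD3 were added after their values were seen. From other lists at most 3 genes a direction are named by largest fold change, and all of the MYC network. Markers not measured were DCN, PTPRC, CD3E, LYZ, CDH5 and TEK, and EIF4A1 among targets. The values of 1 gene of the target list are not reported here.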

Additional observations from a re-analysis of the deposited data

Results flagged for a closer look

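The second Sph.WT library had 33263076 counts, far above the other 5 spheroid columns. Chance flags about 1 in 20 groups of like libraries, and 36 groups were tested. Each group joined both spheroid sets, and where these lie far apart a single extreme library can hardly be flagged. Member levels are given as CPM, and this library's CPM of MYC, 103, lay between those of its 2 replicates.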

How the results depend on the processing

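Against all 6 spheroid columns, 639 genes, 14 members higher and 0 lower, and 177 genes and 6 members at 2-fold or more were called. With library totals these were 359 genes, 5 members and, at 2-fold, 1 member. DESeq2 called 4025 genes (1216 higher, 2809 lower, where edgeR had 390 and 249 and library totals 99 and 260), 22 members and 2203 genes at 2-fold. MDA.L.O. columns alone gave 7970 genes, 32 members, 1008 genes and 0 members at 2-fold; Sph.WT columns alone gave 13909, 31, 8344 and 22, with 2 members lower. Leaving out each library gave 0 to 609 genes, 0 to 14 members, 0 to 221 genes and 0 to 7 members at 2-fold, each 0 being a capsule library left out; against Sph.WT alone, 1 to 2 members were lower, and 0 with library totals. Same-numbered libraries did not deviate together (r of −0.088 to 0.014 over 16985 genes), so the numbers give no pairing. With the replicate block 0 genes and 0 members were called, and 0 at 2-fold (edgeR, 2856 genes and 23 members at an unadjusted p under 0.05); against MDA.L.O. alone it gave 7145 genes and 32 members, and against Sph.WT alone 13876 genes. The members' median log2 fold change stayed between 0.73 and 0.90 against all 6 columns. With 1 library left out, UTP20 ran from −0.03 (without MDA.L.O. library 3) to 0.226 (without Sph.WT library 2). It was 0.254 with library totals, 0.82 against MDA.L.O. alone and −0.35 against Sph.WT alone. POLR1A turned to −0.02, −0.013 and −0.047 without MDA.L.O. library 1, 2 or 3. With 1 library left out, its highest value was 0.095, without Sph.WT library 2. It was 0.139 with library totals, 0.35 against MDA.L.O. alone and −0.20 against Sph.WT alone. BYSL was 0.51 against MDA.L.O. alone and −0.091 against Sph.WT alone. With library totals, BOP1 turned to −0.055 against MDA.L.O., and POLR1A to 0.073 and BYSL to 0.19 against Sph.WT. The cause of these changes was not tested.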
